A study of Homo sapiens with 4 samples.

Results

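Tight junctions seal the space between neighboring epithelial cells. Claudins, which span the membrane and form the paracellular barrier, and the MARVEL-domain proteins occludin and tricellulin make the strands of the junction, junctional adhesion molecules (JAMs) stand beside them, and cytoplasmic scaffold proteins of the zonula occludens (ZO) family tie the strands to actin. EPCAM, a homophilic adhesion protein of the epithelial surface, binds claudin-7. In the stomach these proteins hold the glandular and surface epithelium together, and carcinoma cells that take on mesenchymal traits commonly lose many of them. The genes examined were 8 of the 25559 gene symbols in the tables, read from the tables by symbol: the claudins CLDN1 and CLDN7, occludin (OCLN), tricellulin (MARVELD2), ZO-1 (TJP1), JAM-A (F11R), JAM-C (JAM3) and EPCAM.

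RNA was sequenced from HGC27, a human gastric cancer cell line, in 2 wild-type libraries (labelled wt) and 2 libraries of cells in which RUNX3, a Runt-family transcription factor, had been knocked out (labelled RUNX3KO). The knockout was made with Cas9 and a lentiviral guide followed by single-cell cloning, and the paper reports that an immunoblot showed no RUNX3 protein. The sources used here give neither how many clones were taken nor if replicates came from separate cultures. The p-values therefore measure only the spread between these libraries, which may be technical, and a property of 1 clone cannot be told apart from the effect of the knockout. RUNX3 had 351 and 308 counts in the wt libraries and 225 and 185 in the RUNX3KO libraries, which is -0.70 on the log2 scale with a standard error (SE) of 0.0961 (adjusted p = 1.43e-09, from edgeR's quasi-likelihood fit over the whole table, with Benjamini-Hochberg correction), so its transcript was lower in both RUNX3KO libraries but still present. Without RUNX3KO replicate 2 the value was -0.55, with an adjusted p of 0.0649 in the same edgeR test.

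Each library held between 11731401 and 12110876 reads assigned to genes. Levels are given as counts-per-million (CPM, scaled by edgeR's TMM method) when 1 gene is followed across libraries, and as CPM per kilobase of merged exon when genes are compared with each other. At this depth 3 counts, used here as the floor of detection, correspond to about 0.25 CPM in a library. Because the samples are bulk RNA, fewer cells expressing a gene and less of its RNA per cell cannot be told apart.

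The labelled cell type was checked against 7 markers of simple epithelium, the keratins KRT7, KRT8, KRT18, KRT19 and KRT20, E-cadherin (CDH1) and EPCAM. Their summed level was 3.22 and 2.97 CPM in the wt libraries and 8.90 and 10.6 CPM in the RUNX3KO libraries. KRT19 and KRT20 had 0 counts in all libraries. KRT7 had 3 and 2 counts in wt and 1 and 0 in RUNX3KO, and EPCAM had 1 and 1 in wt and 0 and 0 in RUNX3KO. KRT18 had 0 counts in both wt libraries and 2 and 14 in the RUNX3KO libraries. KRT8 rose from 19 and 11 counts to 72 and 81 (log2 fold change 2.33, adjusted p = 1.9e-13 in the edgeR fit), and CDH1 rose from 15 and 21 to 30 and 32 (0.77, adjusted p = 0.0238). These 7 markers of simple epithelium were thus absent or at low counts (14 or fewer for KRT18, 81 or fewer for KRT8), and they did not move together. Their summed level was higher in both RUNX3KO libraries, a rise that lay mostly in KRT8 (1.61 and 0.932 CPM in wt, 6.10 and 6.74 CPM in RUNX3KO). The part of this rise in the values of the tight junction genes was not tested. Leukocyte markers (5 genes, CD3E at 0 in all libraries) summed to between 1.25 and 2.46 CPM, and endothelial markers (3 genes, PECAM1 and CDH5 at 0 in all libraries) to between 0.0847 and 0.339 CPM.

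Of the 8 genes, 2 carried almost all of the RNA. TJP1 and JAM3 together took between 98.1% and 98.4% of the counts of the 8 genes in each library, whereas the other 6 genes together had 50 and 49 counts in the wt libraries and 70 and 77 in the RUNX3KO libraries. Per kilobase of exon, the wt libraries were ordered JAM3 (21.2 CPM per kilobase, mean of the 2 libraries), TJP1 (12.5), CLDN7 (0.561), F11R (0.268), OCLN (0.109), EPCAM (0.0349), MARVELD2 (0.0237) and CLDN1 (0). In the RUNX3KO libraries the order was JAM3 (27.2), TJP1 (15.5), CLDN7 (0.945), F11R (0.397), OCLN (0.138) and MARVELD2 (0.0468), with CLDN1 and EPCAM at 0. From JAM3 down to F11R, the per-library levels of neighbors in this order did not overlap within either group. The place of OCLN below F11R is uncertain, because 55% of the 50-base windows along the OCLN exons align equally well elsewhere. Reads that aligned to more than 1 place were not assigned to genes, and how many came from OCLN is not known. EPCAM and MARVELD2 rested on 1 to 4 counts where they were seen at all, and their order and that of CLDN1 below them were not detectable at this depth. HGC27 thus held the RNA of a scaffold and of a junctional adhesion molecule, with little or none of the strand-forming claudins, occludin and tricellulin listed here or of EPCAM.

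**Figure D1:**
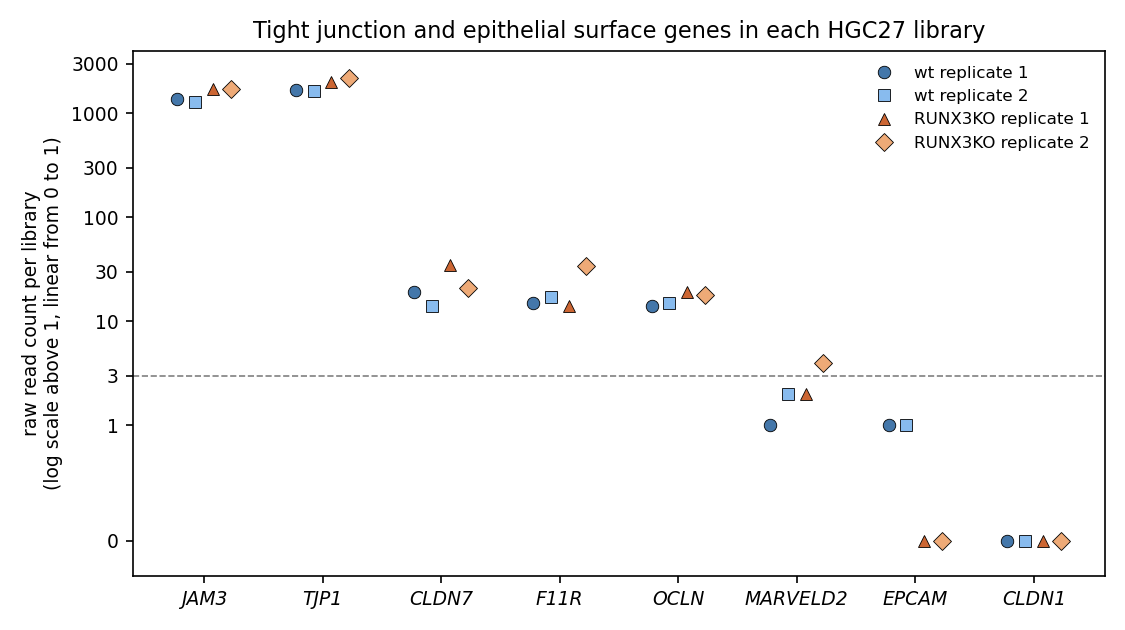
Raw read counts of the 8 genes in each of the 4 libraries, on an axis that is logarithmic above 1 and linear below it, with the floor of 3 counts as a dashed line. JAM3 and TJP1 stand at 1285 counts or more in every library, CLDN7, F11R and OCLN between 14 and 35, and MARVELD2, EPCAM and CLDN1 at 4 or fewer.

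A total of 12967 genes had enough counts to be tested, and 6341 of them (48.9%) had an adjusted p under 0.05 between wt and RUNX3KO, 24.5% higher and 24.4% lower in RUNX3KO. The spread within groups was small, with a biological coefficient of variation of 1.45%, and the median size of a log2 fold change over all tested genes was 0.19. Under the criteria of the study's methods (2-fold or more, with a raw p no higher than 0.05), 794 genes (6.12%) were called, 2.11% higher and 4.01% lower. Of the 8 tight junction and epithelial surface genes, 5 passed the filter, each with at least 14 counts in every library, and 3 of these (TJP1, JAM3 and CLDN7) were higher in RUNX3KO at an adjusted p under 0.05. None was lower, and none met the 2-fold criteria in either direction. The median log2 fold change of the 5 tested genes was 0.36, beside -0.0021 for all genes tested.

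TJP1 encodes ZO-1, the scaffold that binds claudins, JAMs and occludin on the cytoplasmic side and links them to actin. It lies on the minus strand at chr15:29991571-30261118 (GRCh37, the build also called hg19). TJP1 had 1687 and 1656 counts in the wt libraries and 2022 and 2168 in the RUNX3KO libraries, and the groups did not overlap. In CPM this was 142 ± 1.82 in wt and 176 ± 6.38 in RUNX3KO (SD over the 2 libraries of a group). TJP1 rose 1.24-fold, a log2 fold change of 0.31 with SE 0.038 (adjusted p = 2.03e-11 in the edgeR fit). It was also called in all 13 alternative fits, with log2 fold changes between 0.28 and 0.35. Genes around TJP1 were also higher. Of its 36 nearest tested genes, spread over 16.5 Mb of chromosome 15, 30 were higher in RUNX3KO and 14 were at least as high as TJP1, and the median was 0.23. After this median was subtracted, 0.08 remained for TJP1. The part of the region in the value of TJP1 was not tested.

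JAM3 encodes JAM-C, an immunoglobulin-superfamily adhesion molecule found at junctions of epithelial and endothelial cells and on mesenchymal cells. It lies on the plus strand at chr11:133938966-134021896. JAM3 had 1364 and 1285 counts in the wt libraries and 1708 and 1726 in the RUNX3KO libraries, without overlap. Its level was 112 ± 4.70 CPM in wt and 144 ± 0.808 CPM in RUNX3KO (SD, n = 2 each), a log2 fold change of 0.36 with SE 0.0413 (adjusted p = 1.96e-12 in the edgeR fit), or 1.28-fold. All 13 alternative fits called it too, with values between 0.32 and 0.41. The nearest tested genes of JAM3 numbered 25, since the chromosome end lies close. Of these, 19 were higher in RUNX3KO, with a median of 0.20, and 1 was at least as high as JAM3. After this median was subtracted, 0.16 remained for JAM3. The part of the region in the value of JAM3 was not tested.

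The counts of JAM3 carry a further limit. On the opposite strand, NCAPD3, a condensin subunit, shares 1889 of the 5305 merged exon bases of JAM3 (35.6%), and the sources used here do not say whether strand was used in counting. NCAPD3 had 2241 and 2202 counts in wt and 2642 and 2747 in RUNX3KO, a log2 fold change of 0.27 with SE 0.0341 (adjusted p = 1.45e-10 by the same edgeR test). Reads that fit more than 1 gene were set aside as ambiguous by the authors' counting (142481 to 150814 per library). If strand was not used, reads within the shared bases of JAM3 and NCAPD3 would be among these and counted for neither gene.

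CLDN7, a claudin of many simple epithelia that also binds EPCAM, lies on the minus strand at chr17:7163222-7167302. It had 19 and 14 counts in the wt libraries and 35 and 21 in the RUNX3KO libraries. All RUNX3KO values exceeded all wt values, by a margin of 2 counts between the nearest libraries. CLDN7 stood at 1.40 ± 0.299 CPM in wt and 2.36 ± 0.862 CPM in RUNX3KO (SD, n = 2 each). It rose 1.68-fold, a log2 fold change of 0.75 (SE 0.313, 95% interval 0.13 to 1.36, adjusted p = 0.0406 in the edgeR fit). This call was held in 6 of 13 alternative fits, in which the adjusted p ranged from 0.0356 to 0.564. It was lost, among others, with DESeq2 (adjusted p = 0.335), without a filter on low counts (edgeR adjusted p = 0.191) and without RUNX3KO replicate 1, the higher of the RUNX3KO libraries (0.32, edgeR adjusted p = 0.564). Of its 40 nearest tested genes, 2 were at least as high, and their median was 0.06.

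OCLN, which encodes occludin, the first integral membrane protein known from tight junctions, lies on the plus strand at chr5:68788119-68853931. It had 14 and 15 counts in wt and 19 and 18 in RUNX3KO. The groups did not overlap, but the counts were few. Occludin was at 1.23 ± 0.0603 CPM in wt and 1.55 ± 0.0796 CPM in RUNX3KO (SD, n = 2 each), a log2 difference of 0.34 (SE 0.346, 95% interval -0.34 to 1.01, adjusted p = 0.453 in the edgeR fit). The interval therefore takes in both no difference and a 2-fold rise. The counts of OCLN are uncertain for another reason, since 589 of 1071 windows of 50 bases along its exons (55%) aligned equally well to another place in the genome, 228 of them to the pseudogene OCLNP1 on the same chromosome. Reads with more than 1 alignment were not assigned to genes. The windows are not the reads of these libraries, so the share of OCLN reads lost in this way was not measured. The level of OCLN given here may rest largely on the rest of its exons. For 5 of the other 7 genes no window with an equal match elsewhere was found, and MARVELD2 and F11R had 2.62% and 1.94%.

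F11R encodes JAM-A, the main JAM of epithelial junctions, and lies on the minus strand at chr1:160965001-160991133. Its counts were 15 and 17 in wt and 14 and 34 in RUNX3KO. RUNX3KO replicate 1 was the lowest of the 4 libraries and RUNX3KO replicate 2 the highest, so the groups overlapped. F11R was at 1.36 ± 0.120 CPM in wt and 2.01 ± 1.16 CPM in RUNX3KO (SD, n = 2 each), a log2 difference of 0.57 (SE 0.333, 95% interval -0.09 to 1.22, adjusted p = 0.155 in the edgeR fit). Without RUNX3KO replicate 2 the difference turned to -0.19, and without RUNX3KO replicate 1 it was 1.06. The direction of JAM-A thus rested on 1 library.

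The remaining 3 genes were too low to be tested. CLDN1, an epithelial barrier claudin at chr3:190023496-190040235 (minus strand), had 0 counts in all 4 libraries, which allows up to 0.254 CPM in each wt library and 0.254 and 0.250 CPM in the RUNX3KO libraries. EPCAM, at chr2:47572297-47614740 (plus strand), had 1 count in each wt library and 0 in each RUNX3KO library. MARVELD2, which encodes tricellulin, the strand protein of corners where 3 cells meet, lies at chr5:68710892-68740157 (plus strand) beside OCLN and had 1 and 2 counts in wt and 2 and 4 in RUNX3KO. After scaling for library size, the ratio of its summed counts (RUNX3KO over wt) was 1.98 (95% exact interval 0.423 to 12.2), and that of EPCAM was 0 (0 to 5.28), so neither a rise nor a fall was detectable. Intervals and floors of this kind cover counting error only.

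Promoter windows of the 5 genes that matched the RefSeq promoter table by symbol (CLDN1, CLDN7, OCLN, MARVELD2 and TJP1, 10 windows in all) were searched, on both strands of the 250 bases before the transcript start, for 2 short motifs. One is the core bound by Runt-family factors such as RUNX3, TGTGGT or TGCGGT. The other is the E-box CAGGTG, which reads CACCTG on the opposite strand and is bound by SNAIL, ZEB and other factors. It was included because SNAIL and ZEB factors are known to repress claudin and occludin genes. The Runt core was found in 3 of the 10 windows, 1 each of MARVELD2, OCLN and TJP1, and in 16.3% of all 35116 windows in the table. The E-box was found in 4 of the 10, in 3 genes, and in 17.5% of all windows. A window of CLDN7 held 4 E-box matches, a number reached by 43 windows (0.122%) of the table. The number 4 was taken from this window after it was seen. All 250 bases of this window lie within annotated exons, as do those of 1 OCLN window. The window of CLDN1 held neither motif. All matches in the windows of these genes are shown, so that their place and surrounding bases can be read. Each is 30 bases of GRCh37, read 5′ to 3′ on the strand of the gene, with the motif in capitals. The 30-base stretches of the last 2 CLDN7 sites overlap, while their motifs do not.
CLDN7, E-box, chr17:7165954-7165983, minus strand: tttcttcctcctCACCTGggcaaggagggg
CLDN7, E-box, chr17:7165915-7165944, minus strand: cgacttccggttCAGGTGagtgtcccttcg
CLDN7, E-box, chr17:7165800-7165829, minus strand: cctacatatactCAGGTGcgccccacctgt
CLDN7, E-box, chr17:7165798-7165827, minus strand: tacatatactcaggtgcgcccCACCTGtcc
TJP1, E-box, chr15:30261323-30261352, minus strand: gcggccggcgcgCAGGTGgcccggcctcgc
TJP1, Runt core, chr15:30113709-30113738, minus strand: gatgtcactcccTGCGGTatgcgcacgcca
MARVELD2, Runt core, chr5:68710784-68710813, plus strand: aagagcccagtgTGTGGTcattgccgcgac
OCLN, Runt core, chr5:68788367-68788396, plus strand: ggccgacacACCACAcctacactcccgcgt
OCLN, E-box, chr5:68788329-68788358, plus strand: ccatccgagtttCAGGTGaattggtcaccg
OCLN, E-box, chr5:68788472-68788501, plus strand: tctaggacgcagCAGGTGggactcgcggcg
A match to such letters describes the sequence and is neither a binding site nor a cause, and a window without a match says nothing about the factor.

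**Figure D2:**
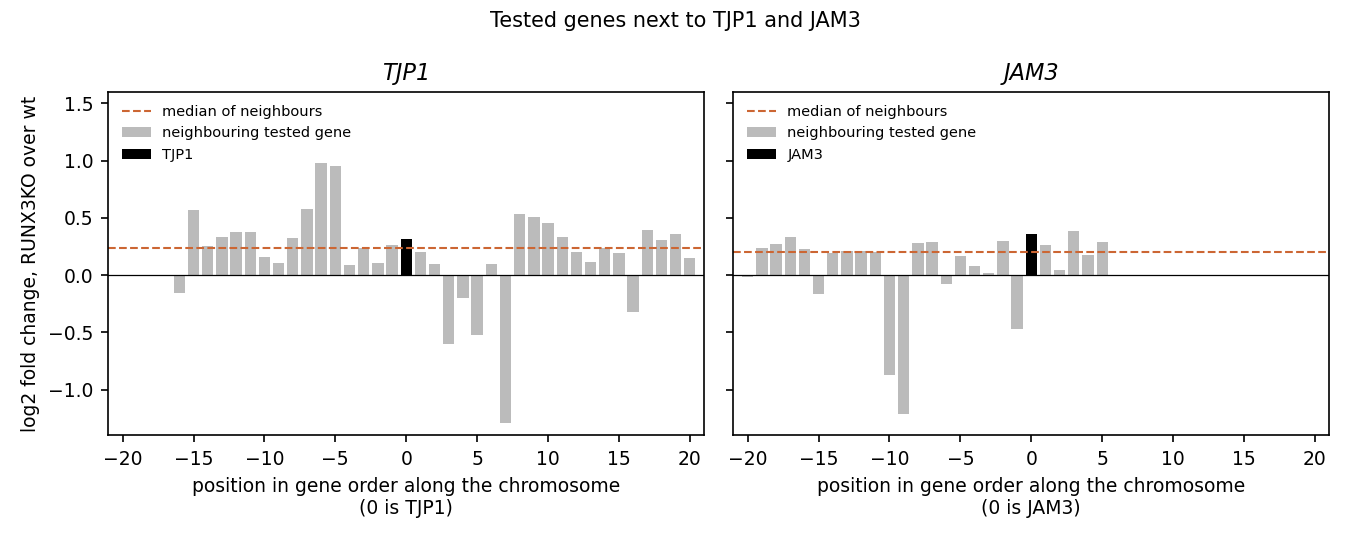
log2 fold changes (RUNX3KO over wt) of TJP1 and JAM3, in black, and of up to 20 tested genes on each side in gray, in their order along the chromosome, with the median of the neighbors as a dashed line. Most neighbors of both genes were higher in RUNX3KO (30 of 36 for TJP1 and 19 of 25 for JAM3), and fewer genes lie on the right of JAM3 because the chromosome ends there.

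The wider set of junction and epithelial genes was described from lists written by symbol, with 84 further genes, of which 83 were in the tables and 36 were tested. Of the 36, 9 were higher and 9 lower in RUNX3KO at an adjusted p under 0.05, a share close to the 48.9% of all genes, with a median log2 fold change of 0.02. Of 23 claudin genes, CLDN1 and CLDN7 among them, 15 had 0 counts in all libraries and 18 had at most 3 in any. The 3 tested were CLDN7, CLDN12 and CLDN15. CLDN15, a pore-forming claudin, had the highest level of the family, 10.0 CPM per kilobase in wt and 8.35 in RUNX3KO. It went from 332 and 352 counts to 300 and 275, a fall of 0.26 on the log2 scale (SE 0.0855, adjusted p = 0.00727 in the edgeR fit), against the direction of CLDN7. CLDN12 differed by -0.07 (edgeR adjusted p = 0.547).

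**Figure D3:**
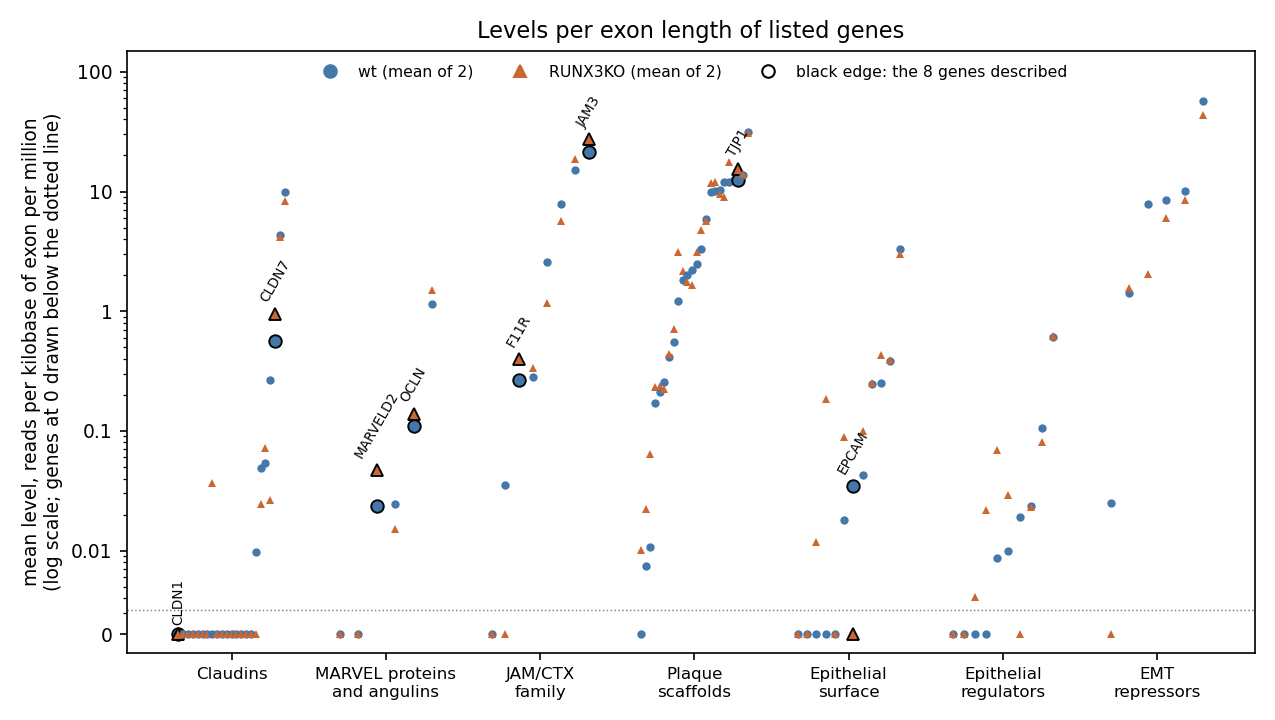
Mean level in CPM per kilobase of merged exon (log axis, with genes at 0 below the dotted line) of the reported genes in each list, with wt as circles and RUNX3KO as triangles, each the mean of 2 libraries, and the 8 genes outlined in black. TJP1 and JAM3 lie near the top of their lists, while most claudins lie at 0.

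The list of MARVEL proteins and angulins held 6 genes, OCLN and MARVELD2 included, of which 2 (OCLN and LSR) were tested and neither was called. LSR, an angulin that recruits tricellulin to cell corners, was the highest, with 36 and 43 counts in wt and 61 and 44 in RUNX3KO, a log2 difference of 0.40 (edgeR adjusted p = 0.128). Among 8 genes of the JAM and CTX family, 6 were tested, with 2 higher and 2 lower, beside 24.5% and 24.4% of all genes tested. JAM3 was the highest of them. CXADR, the coxsackievirus and adenovirus receptor of epithelial junctions, came next and rose with 1079 and 1068 counts in wt and 1338 and 1362 in RUNX3KO, a log2 fold change of 0.32 (SE 0.045, edgeR adjusted p = 3.33e-09). ESAM, a relative best known from endothelial junctions, fell from 85 and 92 counts to 44 and 37, a log2 fold change of -1.14 (SE 0.189, edgeR adjusted p = 2.67e-07). CLMP was also lower (-0.47, edgeR adjusted p = 3.75e-07).

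The cytoplasmic scaffolds and polarity proteins were the list with the most RNA. Of 25 genes, TJP1 included, 20 were tested, 8 were higher, 2 were lower and 10 were not called, with a median of 0.24, beside 24.5% higher and 24.4% lower among all genes tested. AFDN had a larger log2 fold change than TJP1, from a lower level. TJP3, which encodes ZO-3, had 0 and 1 counts in wt and 4 and 2 in RUNX3KO. AFDN, whose product afadin links nectins to actin and binds ZO-1, rose from 213 and 182 counts to 468 and 553 (1.36, SE 0.0876, edgeR adjusted p = 6.04e-25). YBX3, a ZO-1-associated Y-box protein with the highest level of the list, differed by -0.02 (edgeR adjusted p = 0.73). Smaller rises were seen in cingulin (CGN, 0.53, edgeR adjusted p = 1.21e-07), AMOTL2 (0.53), MAGI3 (0.31), PARD3 (0.27) and AMOTL1 (0.23), while PATJ fell by 0.42 and ARHGEF2 by 0.41.

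**Figure D4:**
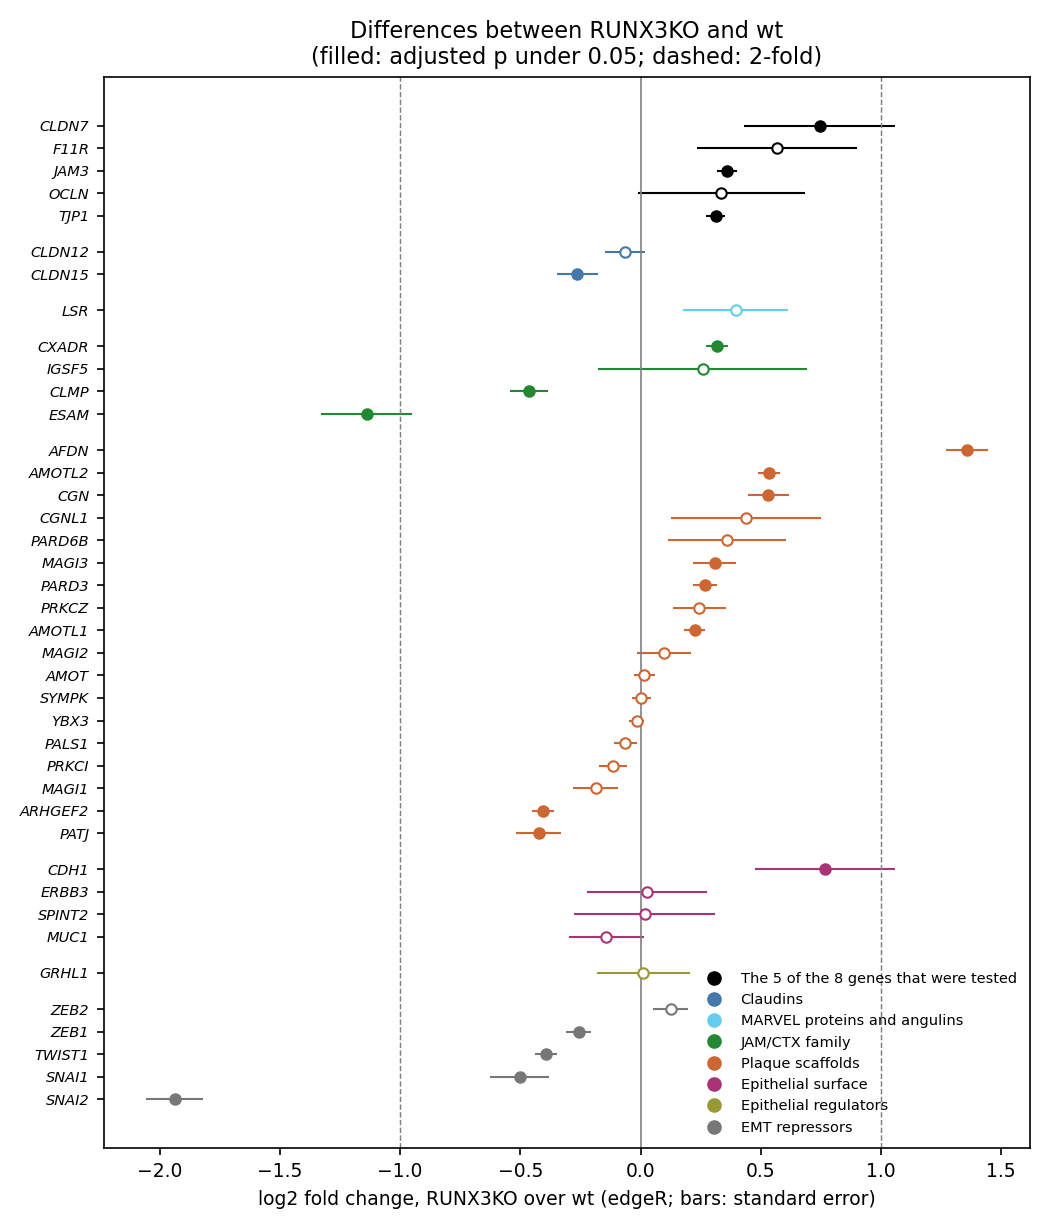
log2 fold change (RUNX3KO over wt) with its standard error for the 5 tested genes of the 8, in black at the top, and for the reported tested genes of each list in color. Filled points have an edgeR adjusted p under 0.05, and dashed lines mark 2-fold, which AFDN, ESAM and SNAI2 pass and none of the 5 does.

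Epithelial surface proteins followed EPCAM in being scarce. Of 14 listed genes, 13 were in the tables, 7 of these had at most 3 counts in any library, and 4 were tested. CDH1 was the only one called, with the values given above (SE 0.293), beside 24.5% higher and 24.4% lower among all genes tested. ST14, which encodes matriptase, a surface protease of epithelia, had 0 counts in both wt libraries and 8 and 10 in RUNX3KO. MUC1, a transmembrane mucin and the highest of the list, had 87 and 100 counts in wt and 86 and 85 in RUNX3KO (-0.14, edgeR adjusted p = 0.474).

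Regulators of this program were listed too. Of 10 epithelial transcription and splicing regulators, 6 had at most 3 counts in any library and 1 was tested, GRHL1, with a log2 difference of 0.01 (edgeR adjusted p = 0.968). Of 6 transcriptional repressors of epithelial genes, 5 were tested and 4 were lower in RUNX3KO, beside 24.4% of all genes tested. SNAI2, which encodes SLUG, fell from 299 and 309 counts to 88 and 72, a log2 fold change of -1.94 (SE 0.119, edgeR adjusted p = 2.89e-26). SNAI1, TWIST1 and ZEB1 were lower by less than 2-fold (-0.50, -0.39 and -0.26), and ZEB2 differed by 0.13 (edgeR adjusted p = 0.143). A link between these values and those of TJP1, JAM3 and CLDN7 was not tested.

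The pattern of each tested gene over the 4 libraries was compared with those of the 36 tested genes of the lists, as the Euclidean distance between log2 CPM profiles centered on their means, with smaller values for closer patterns. CXADR was the nearest to both TJP1 (distance 0.0539) and JAM3 (0.0676), AMOTL1 to OCLN (0.0844), CGNL1 to CLDN7 (0.475) and PARD6B to F11R (0.738). The distances of CLDN7 and F11R were larger, as were the differences between replicates of these low genes. With 2 libraries in each group, such a distance describes little beyond the difference between groups and its spread.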

How the data were processed

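The authors deposited, for each of 4 HGC27 libraries, raw read counts per gene symbol, without normalization. The submitters' processing notes name bcl2fastq, HISAT2 2.1.0, HTSeq and hg19, whereas the paper's methods name STAR and featureCounts. The strand setting is not given in the sources used here. Rows for reads without a gene took between 25.9% and 28.1% of all counts and were left out. The analysis used edgeR 4.0.16 under R 4.3.3: filterByExpr (minimum count 10, minimum total 15), TMM scaling, glmQLFit and glmQLFTest, without a replicate block, with p-values adjusted over all 12967 tested genes by Benjamini-Hochberg. SDs and p-values rest on 2 libraries per group. An exact two-sided permutation test of 2 against 2 libraries cannot give a p below 0.333, and all adjusted p-values come from models across all genes.

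Counts of the 2 libraries of a group differed with a chi-square per degree of freedom of 1.23 (wt) and 1.19 (RUNX3KO), beside 17.9 and 18.2 between groups, which does not show whether replicates were separate cultures. Gene positions and merged exon lengths came from GENCODE v44lift37 on GRCh37, to which 21766 of 25559 symbols were matched. This annotation may differ from the one used for counting. Promoter windows came from RefSeq (GRCh38.p14) and were placed on GRCh37 by exact match. Repeated exon windows were found with minimap2 2.31, in steps of 10 bases.

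The genes and lists were chosen with earlier results of these data known. Named from the lists were genes with at least a 2-fold change and an adjusted p under 0.05, the highest gene of each list, and the nearest in pattern to each tested gene. A gene that meets the first of these is not reported here. The other list genes and NCAPD3 were named after their values were seen. Alternatives were other scalings, DESeq2 1.42.0, limma-voom (limma 3.58.1), edgeR's exact test, no filter, at least 10 counts in every library, a replicate block, each library left out, and subtraction of the median of up to 40 nearest tested genes. A planned protein comparison was not run.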

Additional observations from a re-analysis of the deposited data

How the results depend on the processing

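TJP1 and JAM3 kept their direction and call in all 13 alternative fits, and OCLN and F11R were called in none of them. With the median of neighboring genes subtracted, TJP1 moved from 0.31 to 0.078 and JAM3 from 0.36 to 0.16. The CLDN7 call (0.75, edgeR adjusted p = 0.0406) was lost with upper-quartile scaling (0.73, edgeR adjusted p = 0.0507), DESeq2 (0.75, adjusted p = 0.335), limma-voom (0.70, adjusted p = 0.0652) and no filter (0.75, edgeR adjusted p = 0.191). With each library left out in turn, CLDN7 ranged from 0.32 to 1.08, OCLN from 0.29 to 0.39, F11R from -0.19 (without RUNX3KO replicate 2) to 1.06 and RUNX3 from -0.86 to -0.55. In these fits, where the lone library of a group is assumed to vary like the others, 2 or 3 of the 8 genes were called higher. At the 2-fold criteria 0 to 1 were, namely F11R without RUNX3KO replicate 1 and CLDN7 without RUNX3KO replicate 2. The other listed genes called lower ranged from 5 (without RUNX3KO replicate 2) to 9. Genes called over the whole table numbered 6341, against 3692 with DESeq2, 3014 without RUNX3KO replicate 1 and 2663 without RUNX3KO replicate 2. Deviations of same-numbered libraries from their group means correlated at 0.03 over genes, so no pairing by replicate number was seen. Because replicates differed little beyond counting error, this value cannot exclude a pairing. A fit with the replicate block called 6286 genes and changed no call among the 8 (CLDN7 0.75, edgeR adjusted p = 0.0356). With MANE Select transcript lengths in place of merged exons, an alternative added after seeing the data, 8 of 8 genes kept their rank by level, which leaves the repeated exons of OCLN out of account. The cause of these shifts was not tested. CLDN7, OCLN and F11R rest on 14 to 35 counts per library, and CLDN1, EPCAM and MARVELD2 on 4 or fewer, at or near the floor of 3 counts.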
